A study of Mus musculus with 6 samples.

Results

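Genes that mouse hepatocytes are known for, 10 in all, were followed across 6 expression arrays of a macrophage-like cell line. They are Hpn, Kng1, Kng2, Apoc1, Pklr, Gys2, Uroc1, Creb3l3, Cth and Tkfc. All 10 were found on the arrays, through 12 of 44170 targets, and they stand for 10 of 44132 genes once the targets of one gene are joined. Only 1267 targets were matched to a gene symbol, and each of the others counts below as a gene of its own. Shares of all genes are thus mostly shares of targets, and one gene can be counted more than once. Most were chosen by a measured value: earlier readings of these arrays had shown them low on the array of control replicate 3. The level on that array is therefore given below as a description, with no test.

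The arrays are 1-colour NimbleGen mouse arrays hybridised with Cy3-labelled total RNA from RAW264.7 cells, a line of mouse macrophage-like cells. The knockdown group, 3 arrays labelled TimKO, came from cells transfected with a pRNAi-U6H1 vector that expressed an siRNA to Tim-3, an inhibitory receptor of immune cells whose gene is Havcr2. The control group, 3 arrays labelled NC, was transfected with the control siRNA. Stable clones were selected with the drug G418, both groups grew in DMEM with fetal bovine serum, and every array had a culture of its own, per the labels. How many clones were used is not stated, so a p-value here reflects differences among cultures only. Havcr2 was not analysed here.

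Hepatocytes make most plasma proteins, among them the kininogens from which bradykinin is cut and the small apolipoproteins that travel on lipoproteins. They also store glycogen, turn over fructose and amino acids, and run enzyme isoforms of glycolysis and glycogen synthesis that most other cells lack. Macrophages are not known for most of these functions, although Apoc1 is expressed in macrophages too, and Cth and Tkfc are found in many cell types.

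Median intensities per array lay between 201.5 and 218.3, and the random-sequence probes that mark the background had log2 intensities of 4.53 to 4.62. Control replicate 3 stood apart from the rest: 390 genes were 4-fold or more below all other arrays there, against 0 on each of the other 5 arrays in turn. It also had 88 genes 4-fold or more above all other arrays, against 1 to 17 on each of the other 5. Of 17 hepatocyte markers such as albumin and the fibrinogens, 0 could be matched to a target here, so the cell type behind the members was not checked against its defining markers. Of 12 macrophage markers only Ptprc was matched, with a log2 intensity of 7.28 ± 0.20 (SD, n = 5) on the other 5 arrays and 7.61 on the third control array.

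Among the proteins of the cell surface and plasma, Hpn and Apoc1 were the brightest members. Hpn encodes hepsin, a serine protease anchored in the hepatocyte membrane. Its log2 intensity was 11.09, 11.22 and 11.46 on knockdown replicates 1 to 3, 11.52 and 10.94 on control replicates 1 and 2, and 5.26 on control replicate 3. The first 5 values lie within 0.58 of each other and the last lies 5.69 below the lowest of them. On the linear scale, 1971 to 2946 on the other 5 arrays faced 38.3 on control replicate 3, which was 1.56 times the random-sequence probes.

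Apoc1 encodes apolipoprotein C-I, a small surface protein of lipoproteins. It read 11.59, 11.60 and 11.89 on the knockdown arrays, 11.93 and 12.24 on control replicates 1 and 2, and 5.92 on control replicate 3. It stood at the 87.0 to 91.6 percentile of all targets on the other 5 arrays and at the 30.5 percentile on control replicate 3. On these 5 arrays the 3 knockdown values were all below both control values, by a margin of only 0.04.

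Kng1 and Kng2 encode the kininogens, plasma precursors of the vasoactive peptide bradykinin. They are close copies that lie on the same chromosome, so probes for one may also read the other, and each had 2 targets. The brighter target of Kng1 read 9.90, 9.78 and 9.76 on the knockdown arrays, 10.14 and 9.39 on control replicates 1 and 2, and 4.51 on control replicate 3. Its dimmer target read 9.03, 9.14, 9.07, 9.19, 9.22 and 4.26 in the same order. Both Kng1 targets were thus at or below the level of the random-sequence probes on control replicate 3, at 0.93 and 0.78 times that level, and at least 21.3 times above it on every other array. The dimmer target was the steadiest of all 12, with an SD of 0.08 over the other 5 arrays.

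Kng2 was low on control replicate 3 by both of its targets. The target that was brighter over all 6 arrays read 8.95, 8.22 and 8.43 on the knockdown arrays, 8.61 and 9.03 on control replicates 1 and 2, and 5.88 on control replicate 3. The other target read 8.78, 8.56, 8.68, 8.87, 8.41 and 4.01. They differed by no more than 0.61 on any array other than control replicate 3. On that array they stood at 2.40 and 0.65 times the random-sequence probes, so the gap between them there does not measure a level. With intensities under 100 set to 100, the mean of the other 5 arrays exceeded control replicate 3 at least 4.01-fold by one target and at least 4.04-fold by the other.

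**Figure D1:**
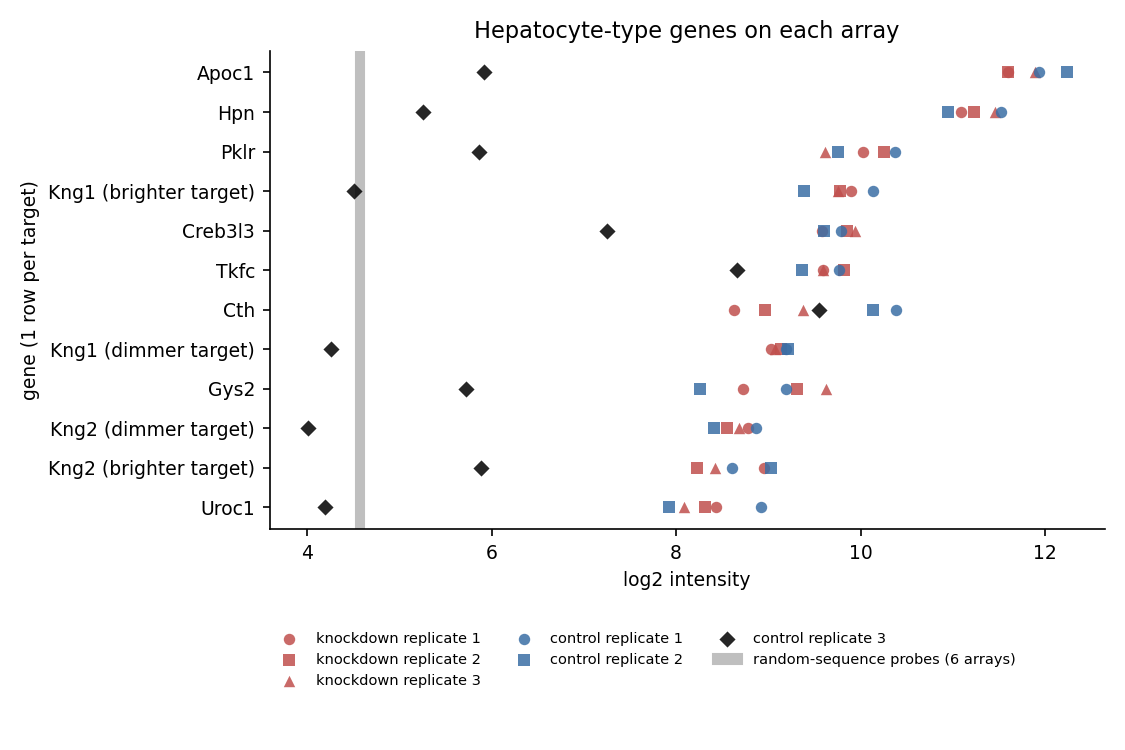
Log2 intensity (x axis) of the 12 targets of the 10 genes (y axis) on each array: red for knockdown, blue for control replicates 1 and 2, black for control replicate 3. The grey band spans the random-sequence probes of the 6 arrays, 4.53 to 4.62, and brighter and dimmer refer to the mean over 6 arrays. Black points lie near or below the band for Kng1, Uroc1 and one target of Kng2 and far left of the coloured points for every row except Cth and Tkfc.

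Of the enzymes, Pklr, Gys2 and Uroc1 showed the same pattern. Pklr encodes the liver and red cell form of pyruvate kinase, the last step of glycolysis. It read 10.03, 10.25 and 9.62 on the knockdown arrays, 10.37 and 9.76 on control replicates 1 and 2, and 5.87 on control replicate 3, which is 3.75 below the lowest of the others. The 2 groups overlapped on the other 5 arrays.

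Gys2 encodes the liver form of glycogen synthase. Its log2 intensities were 8.73, 9.31 and 9.62 on the knockdown arrays, 9.19 and 8.26 on control replicates 1 and 2, and 5.72 on control replicate 3. Next to Cth it varied most over the other 5 arrays, with an SD of 0.54 and a span of 1.37 from control replicate 2 to knockdown replicate 3.

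Uroc1 encodes urocanase, which works in the breakdown of histidine. It was the dimmest member, at 8.44, 8.32 and 8.09 on the knockdown arrays, 8.92 and 7.92 on control replicates 1 and 2, and 4.19 on control replicate 3. That last value was 0.74 times the random-sequence probes, while the other 5 arrays stood at 10.5 to 20.8 times them.

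Creb3l3 encodes a transcription factor held in the endoplasmic reticulum, known for its control of triglyceride and acute-phase genes in liver. It read 9.58, 9.86 and 9.93 on the knockdown arrays and 9.78 and 9.61 on control replicates 1 and 2. Its 7.25 on control replicate 3 was low against the other arrays but still 6.21 times the random-sequence probes, the highest such level among the 8 members that lay 4-fold or more below every other array there.

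Cth did not follow the rest, and Tkfc did so to a smaller extent only. Tkfc encodes triokinase, an enzyme of fructose breakdown. It read 9.59, 9.82 and 9.60 on the knockdown arrays, 9.76 and 9.37 on control replicates 1 and 2, and 8.66 on control replicate 3. Control replicate 3 was again the lowest array, but by 0.71, less than 2-fold.

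Cth encodes cystathionine gamma-lyase, which makes cysteine from cystathionine and is a source of hydrogen sulfide. Its log2 intensity was 8.62, 8.96 and 9.37 on the knockdown arrays and 10.38, 10.14 and 9.55 on control replicates 1 to 3. Control replicate 3 lay between the groups, 0.06 above the mean of the other 5 arrays, and all 3 control arrays were above all 3 knockdown arrays. With all 6 arrays 25.1% of genes had groups that did not overlap, in either direction.

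Set against all genes, 8 of the 10 members lay 4-fold or more below all other arrays on control replicate 3, and 9 of 10 were lowest there. Over all genes the shares were 0.884% and 22.2%. Nothing is read from these counts, since this pattern was the ground for choosing most members. The differences between control replicate 3 and the mean of the other 5 arrays ran from -5.99 for Hpn and -5.93 for Apoc1 through -5.28 for Kng1, -4.15 for Uroc1, -4.14 for Pklr, -3.31 for Gys2 and -2.77 for Kng2 to -2.50 for Creb3l3. Tkfc followed at -0.97 and Cth at 0.06. The members nearest to the 4-fold limit were Creb3l3, 2.33 below its lowest other array, and, on the other side, Tkfc, 0.71 below. The median over the members was -3.72, against -0.02 over all genes and -0.0043 over the 19345 other genes that were as bright on the other 5 arrays.

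**Figure D2:**
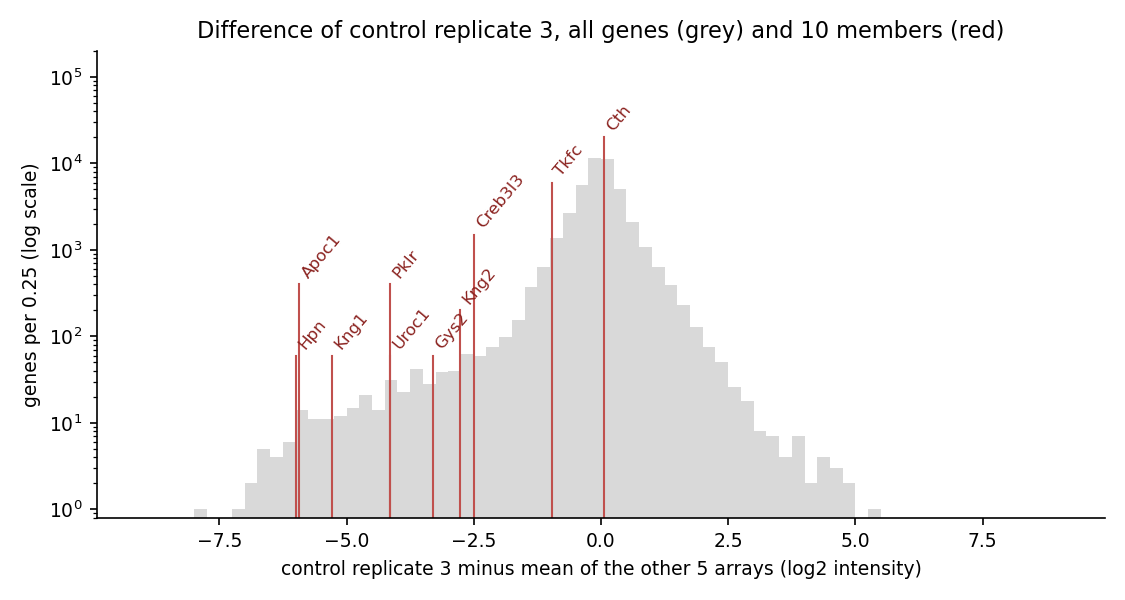
Number of genes (y axis, log scale) by the difference between control replicate 3 and the mean of the other 5 arrays (x axis, log2 intensity). Grey bars hold all 44132 genes and red lines mark the 10 members, from -5.99 for Hpn to 0.06 for Cth. Most genes lie near 0, and the left tail holds more genes than the right.

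Intensities near the random-sequence probes do not measure a level, so the folds are lower bounds for the members that were dim on control replicate 3. With intensities under 100 set to 100, the level that all 27526 targets of the authors' series table reached on at least 3 arrays, the mean of the other 5 arrays exceeded control replicate 3 at least 36.9-fold for Apoc1, at least 24.3-fold for Hpn and at least 10.3-fold for Pklr. The bound was at least 8.87-fold for Kng1, 5.2-fold for Gys2, 4.01-fold for Kng2 and 3.23-fold for Uroc1. Creb3l3 needed no such bound, at 152 against 764 to 978, a 5.66-fold difference.

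The members' order among the other 5 arrays was not the stated ground for choosing most of them, and it is described here with no test. Control replicate 1 was above the mean of these 5 arrays for 9 of the 10 members and the highest array for 5 of them. Control replicate 2 was below that mean for 7 and the lowest for 5, but above it for Kng2 (0.38), Apoc1 (0.38) and Cth (0.64), and the highest array for 2. Among the other 382 genes at least 4-fold lower on control replicate 3, control replicate 1 was highest for 50% and control replicate 2 lowest for 38.0%, and their median deviations there were 0.21 and -0.13. For the members the median deviations were 0.22 and -0.25. For the 19345 other genes at least as bright as the dimmest member, control replicate 1 was highest for 22.3% and control replicate 2 lowest for 19.0%, with median deviations of 0.0067 and 0.0085. The knockdown arrays lay between, with median deviations of -0.10, -0.02 and -0.03 for the members.

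**Figure D3:**
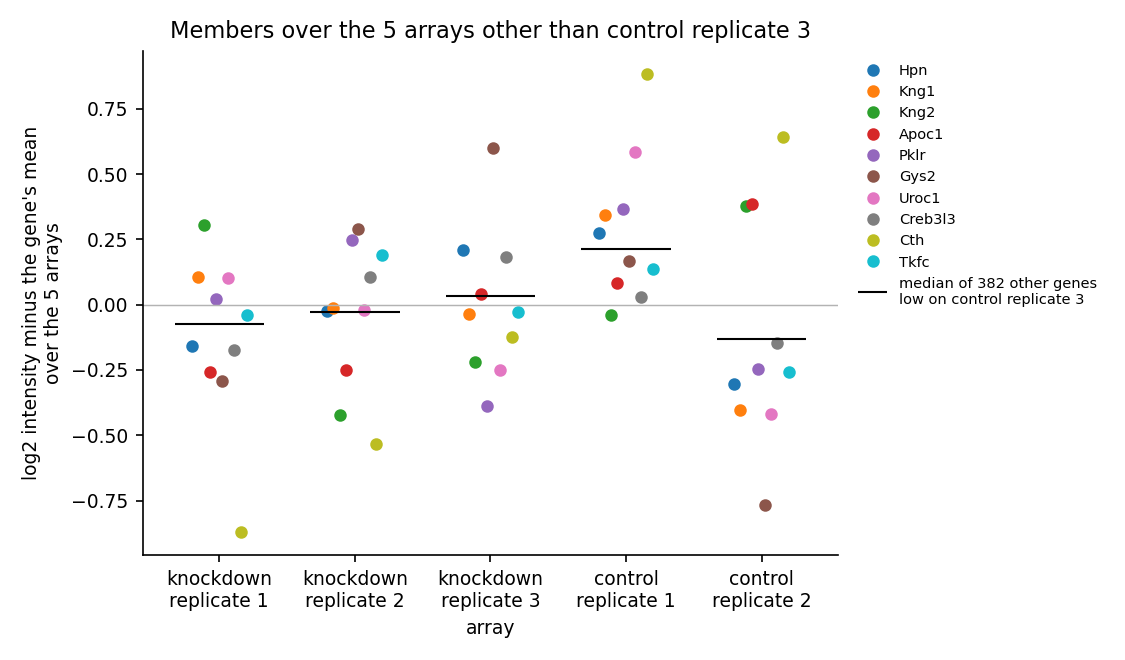
Log2 intensity minus the gene's mean over the 5 arrays (y axis) for each of the 10 members on the 5 arrays other than control replicate 3 (x axis). Black bars are the medians of the 382 other genes that lay 4-fold or more below all other arrays on control replicate 3. Control replicate 1 holds 9 of 10 members above 0 and control replicate 2 holds 7 below.

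The SD over the other 5 arrays ran from 0.16 for Creb3l3 to 0.75 for Cth, with a median of 0.30 over the members, against a median of 0.16 over the 19345 other genes at least as bright as the dimmest member. No test was run on this, the SD of Creb3l3 was below that median, and an SD over these 5 arrays includes the difference between the groups, which was largest for Cth. As in any bulk sample, fewer cells of a type and less RNA per cell cannot be told apart in these values.

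The comparison between knockdown and control cells was tested without control replicate 3, on 3 knockdown arrays against control replicates 1 and 2. Members low on control replicate 3 were low against these 5 arrays, but the difference between the groups was not the stated ground of choice. For Cth, which was not low there, the ground of choice is not stated, so its test may not be independent of that choice. None of the 10 members passed limma's test at an adjusted p under 0.05 over all genes, where 0.265% of genes were higher and 0.247% lower. At an unadjusted limma p under 0.05 there was 1 member, Cth, against 14.8% of all genes. The groups did not overlap for 2 members, Apoc1 and Cth, against 34.5% of all genes. They also did not overlap for the dimmer target of Kng1, which this count leaves out. The median difference was -0.04 over the members and 0.0012 over all genes, with 5 members higher and 5 lower.

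Cth had the largest difference of the 10. Its mean log2 intensity was 8.99 ± 0.37 (SD, n = 3) on the knockdown arrays and 10.26 on control replicates 1 and 2, a difference of -1.27 (SE 0.25, 95% interval -1.87 to -0.67, limma adjusted p = 0.118). With the same arrays it passed on the targets of the authors' series table (limma adjusted p = 0.018), without genes below the median level (0.0014), with log2(intensity + 50) (0.018) and with a trended and robust variance fit (3.8e-04), so the call for Cth depended on these settings. With control replicate 3 included the difference was -1.04 (SE 0.28, limma adjusted p = 0.152).

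For the 4 proteins of the surface and plasma, intervals without control replicate 3 included 0. The difference was 0.02 (95% interval -0.53 to 0.57) for Hpn and 0.05 (-0.54 to 0.64) for Kng1. Apoc1 differed by -0.39 (SE 0.18, -0.82 to 0.04, limma adjusted p = 0.379) and Kng2 by -0.28 (-0.92 to 0.36). The second targets of the kininogens differed by -0.12 (-0.44 to 0.20) for Kng1 and 0.03 (-0.43 to 0.49) for Kng2. Each had the opposite sign to the target that stood for the gene. For Kng2 that choice rested on control replicate 3. Over the other 5 arrays the target that stood for Kng2 had a mean of 8.65, against 8.66 for the second target. Without adjustment for the number of genes, the intervals exclude a 2-fold change in either direction for Hpn, Kng1, Kng2 and Apoc1. For Kng2 this was close, and its difference was -0.49 without control replicate 1 as well.

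Of the other enzymes, Gys2 had the widest interval, with a difference of 0.50 (95% interval -0.41 to 1.41), so for Gys2 a 2-fold rise was not excluded. Pklr differed by -0.10 (-0.76 to 0.56), Uroc1 by -0.14 (-0.90 to 0.62) and Tkfc by 0.10 (-0.34 to 0.54). The transcription factor gene Creb3l3 differed by 0.10 (-0.32 to 0.51). Also without such adjustment, the intervals of Pklr, Uroc1, Tkfc and Creb3l3 exclude a 2-fold change in either direction, like those of the surface and plasma proteins. For Uroc1 this was close, and its difference was -0.64 without control replicate 2 as well. For these 5 genes the test was not passed, and levels alike in both groups cannot be concluded from that.

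With all 6 arrays the same contrast took on the pattern of control replicate 3. Hpn was then higher in the knockdown by 2.01 (SE 1.60), Kng1 by 1.80 (SE 1.41), Apoc1 by 1.67 (SE 1.65), Gys2 by 1.5 (SE 0.86), Pklr by 1.3 (SE 1.14) and Uroc1 by 1.27 (SE 1.16). For Apoc1, Pklr, Uroc1 and Kng2 the sign was opposite to that without control replicate 3. By limma 0 of the 10 members passed, 1 (Cth) had an unadjusted p under 0.05, and over all genes 0.503% were called higher and 0.709% lower. Most members were chosen for low values on control replicate 3, so their values with all 6 arrays are a description. Nothing is read from the members not passing, as the SE of Hpn was 0.22 without that array and 1.60 with it. The SD of the control group for Hpn, 3.46 (n = 3) with control replicate 3, compares with 0.19 in the knockdown group. By group means alone 6 members would pass a 2-fold screen as higher in the knockdown and 1, Cth, as lower. Without control replicate 3 these counts were 0 and 1.

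**Figure D4:**
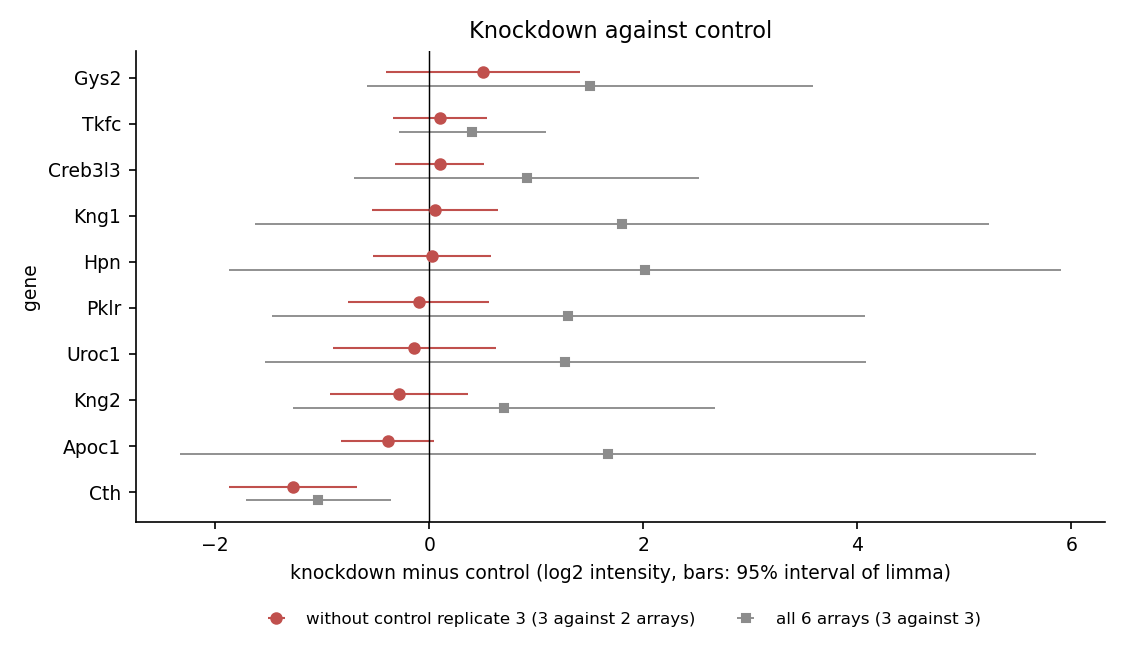
Knockdown minus control (x axis, log2 intensity) for the 10 members (y axis), with 95% intervals of limma. Red points leave out control replicate 3 and grey points use all 6 arrays. Grey points lie to the right of the red ones for all 10 members, and without control replicate 3 only the interval of Cth lies apart from 0.

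Other genes with a matched symbol were ranked by how closely their log2 profile over the 6 arrays, centred on its mean, followed the median profile of the members. Among 1218 such genes the closest was Cyp2c69, a cytochrome P450 gene, with a root-mean-square difference of 0.19 (log2 intensity), as close as the nearest member, Pklr, at 0.20. It read 9.60, 10.10, 9.54, 9.95 and 9.47 on the other 5 arrays, against 6.21 on control replicate 3. Next came C1s1, which encodes a protease of the complement system, at 0.40, with a mean of 9.55 ± 0.21 (SD, n = 5) on the other 5 arrays against 6.72. Also among the closest 8 were Prg4 (0.48), which encodes the lubricating protein proteoglycan 4, BC024386 (0.54), Amy1 (0.57), an amylase gene, Stxbp6 (0.60), and Cyp2d11 (0.63), another cytochrome P450 gene. Of those named, BC024386 had the largest fall on control replicate 3, from a mean of 9.33 to 4.25. A further 336 genes known by accession alone lay as close as Cyp2d11. The profile is led by control replicate 3, so the measure mostly finds genes that are low there, and Cth, at 1.56, was the member least like the median.

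The lists of other hepatocyte genes could hardly be read here, since only 2.87% of targets were matched to a symbol. A listed gene without a match may still have a target on the arrays under an accession with no name here. Of 273 genes in 10 lists of plasma proteins, complement, lipid transport, sugar and amino acid metabolism, transcription factors, detoxification and membrane proteins, 3 were matched to a target, and 0 of these passed limma's test in either direction without control replicate 3 (0 at an unadjusted p under 0.05). All 3 were lowest on control replicate 3, and 1 of them, C1s1, by at least 4-fold. Over all genes these shares were 22.2% and 0.884%. With 3 genes, and lists chosen with earlier results of these data known, nothing is read from this. Nr1i2, which encodes the xenobiotic receptor PXR, had a log2 intensity of 7.46 ± 0.25 (SD, n = 5) on the other 5 arrays, against 6.11 on control replicate 3. Cyp4a12a, a fatty acid hydroxylase gene of male liver, split the other 5 arrays: it read 9.62, 9.66 and 9.91 on knockdown replicates 2 and 3 and control replicate 1, and 7.08 and 7.32 on knockdown replicate 1 and control replicate 2. The gap between these sets of arrays was 2.29 for Cyp4a12a. After this was seen, the same order was looked for elsewhere. Knockdown replicate 1 and control replicate 2 were the lowest of the other 5 arrays for 4 of the 10 members, with gaps of 0.46 for Gys2, 0.18 for Creb3l3, 0.14 for Hpn and 0.0094 for Tkfc. This order held for 28.0% of the 382 other genes low on control replicate 3 and for 6.43% of the 19345 genes as bright. A gap of at least 2-fold was rare, with 0 of the 10 members, 4 of the 382 genes and 5 of the 19345. Of 23 listed genes of other liver cells only Vsig4, a complement receptor gene of tissue macrophages, was matched, at 6.88 ± 0.34 (SD, n = 5) and 4.82 on control replicate 3. The part of other cell types in the members' levels was not tested.

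Promoter sequence was looked at because 8 members were low on control replicate 3. RefSeq windows of 250 bases before the start site (GRCm38.p6) were at hand for 6 members, with 9 windows, since Hpn, Pklr and Creb3l3 have 2 start sites each. Kng1, Apoc1, Gys2 and Cth had no entry. Each window was searched on both strands for 5 motifs known from liver promoters or from core promoters. TTGCNNAA, read by C/EBP factors, was in 3 member windows (Hpn, Kng2 and Tkfc) and in 9.56% of the 32851 windows of all genes. TGTTTNC, read by FOXA factors, was in 2 (Creb3l3 and Kng2) against 17.8%. TGNACTTTG, read by HNF4, was in 1 (Tkfc) against 1.19%, and TATAAA, the TATA box, in 1 (Pklr, 31 bases before the start) against 12.4%. GTTAAT, a half-site of HNF1, was in 0 of the 9 windows against 6.43%. With 9 windows these shares are a description only.

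The 2 windows with the most kinds of motif are printed 5′ to 3′ on the gene's strand, with the matches in capitals. They pair Kng2, which was low on control replicate 3, with Tkfc, which was less than 2-fold lower there. That of Kng2 is chr16:23029102-23029351 (minus strand), with the C/EBP match starting 112 bases and the FOXA match 62 bases before the start site. That of Tkfc is chr19:10604259-10604508 (minus strand), with the HNF4 match 189 bases and the C/EBP match 47 bases before the start site.
Kng2: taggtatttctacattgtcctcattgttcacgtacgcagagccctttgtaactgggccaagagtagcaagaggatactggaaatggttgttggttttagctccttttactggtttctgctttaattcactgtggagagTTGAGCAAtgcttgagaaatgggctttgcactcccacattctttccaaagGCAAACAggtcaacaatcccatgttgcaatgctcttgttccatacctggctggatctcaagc
Tkfc: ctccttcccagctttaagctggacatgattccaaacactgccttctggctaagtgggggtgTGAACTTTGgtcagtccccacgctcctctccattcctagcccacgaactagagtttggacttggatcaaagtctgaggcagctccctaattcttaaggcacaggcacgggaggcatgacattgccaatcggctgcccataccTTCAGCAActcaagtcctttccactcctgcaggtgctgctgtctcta
Both windows hold a C/EBP match, and 4 of the 9 windows held none of the motifs. Any link between these motifs and the members' levels was not tested.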

How the data were processed

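The authors deposited intensities on a linear scale, in a table for each array and 1 for the series. Per the submitters' processing notes the intensities were made with RMA, with no version or setting given. RMA as commonly defined normalizes probes between arrays, which would remove a shift shared by all genes. The probes' genome build is not stated in the sources used here. Each member target was read by 3 probes.

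Target accessions, stripped of versions, were looked up among the transcripts, symbols and synonyms in RefSeq's gene table (GRCm38.p6), used for names and promoter windows only. Of 44170 targets, 1267 (2.87%) matched 1229 symbols. The target with the highest mean over the 6 arrays stood for a gene with a symbol, and an unmatched target counted as a gene of its own.

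Log2 intensities were compared with lmFit and eBayes of limma 3.58.1 under R 4.3.3 (two-sided, Benjamini-Hochberg over 44132 genes, adjusted p under 0.05), without and with control replicate 3. Data were also simulated for the fit without that array, with 44132 genes, of which 200 drawn at random were changed. Of these changes, 8% of 2-fold, 56% of 4-fold, 70% of 8-fold and 94% of 16-fold ones were recovered. The rates are for genes of any level and variance, with few genes changed, and not for the members in particular. Plots were made in Python 3.11.15 (matplotlib 3.10.9).

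The members and lists were chosen with earlier results of these data known. Named were all members, the list genes matched to a target and the 8 closest profiles. One liver gene and one of these profiles are not reported here. Arrays with the same replicate number had correlations of -0.03, -0.01 and 3e-04 between their deviations from the group mean. The control mean here includes control replicate 3, so these values cannot exclude a pairing. No pairing was used in the main fits. Alternatives were another table, normalization, offset, dim-gene filter, variance fit, array weights, a replicate block, a stricter threshold and leaving out each array.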

Additional observations from a re-analysis of the deposited data

How the results depend on the processing

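The 8 members at least 4-fold lower on control replicate 3 stayed 8 members in the series table and under quantile normalization, median centring and the mean of a gene's targets, and were 6 with log2(intensity + 50). Their depth depends on the scale of dim values: the median difference over the 10 members, -3.72, was -2.47 with log2(intensity + 50) and -2.44 with intensities under 100 set to 100.

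Without control replicate 3, 0 members and 226 genes passed limma's test. It called 1 member (Cth) and 1345 genes in the series table, 1 and 1102 with log2(intensity + 50), 1 and 1956 among genes at or above the median level, and 1 and 1977 under a trended, robust variance. At an adjusted p under 0.01 it called 7 genes, and without one further array 0 members and 0 to 0 genes. With all 6 arrays, 0 members and 535 genes became 1 member (Cth, -1.04) and 2189 genes among those at or above the median level, and 0 members with 1806 genes in the series table, 1416 with log2(intensity + 50), 2493 under a trended, robust variance and 60 at an adjusted p under 0.01. Leaving out one array of the 6 gave 1 to 226 genes. Settings that drop genes or arrays test fewer of them by construction, and for the others the cause was not tested.

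A replicate block in limma's model gave calls for 0 members and 0 genes, with 5551 genes at an unadjusted p under 0.05 without control replicate 3 and 6533 with all 6 arrays. In this fit Hpn differed by -0.078, Pklr by 0.075 and Cth by -1.47 (limma adjusted p = 0.339) without control replicate 3.

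Differences near 0 changed sign. Without control replicate 3, Hpn differed by -0.0053 with array weights, and Kng1 by -0.036 with the mean of its targets. Its second target differed by -0.12 and that of Kng2 by 0.029, in a setting added after the data were seen. Leaving out one more array gave -0.27 to 0.31 for Hpn, -0.32 to 0.42 for Kng1, -0.41 to 0.21 for Pklr, -0.64 to 0.36 for Uroc1 and -0.10 to 0.30 for Tkfc. Leaving out one of all 6 gave -0.28 to 1.29 for Kng2, -0.39 to 2.77 for Apoc1, -0.10 to 2.15 for Pklr and -0.14 to 2.23 for Uroc1, each lowest without control replicate 3. Cth kept its sign in every setting run, from -1.47 to -0.86.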
